A study of Mus musculus with 46 samples.

Results

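Sox2 mGS cells, pluripotent-like cells made from germline stem cells by lentiviral Sox2 together with knockdown of p53, were compared with the germline stem cells (GS cells) they came from. Samples were taken by their titles: 6 arrays of Sox2 mGS (3 lines, 2 cultures of each) and 6 arrays of GS (3 lines, 2 cultures of each), 12 of the 46 arrays of the series and 6 of its 23 lines. All lines of both groups carried the DBA/2; GFP Tg background, and both were grown on mouse embryonic fibroblast (MEF) feeder cells. GS cells have no treatment in the labels and were kept in StemPro-34 medium with basic fibroblast growth factor (FGF2) and glial cell line-derived neurotrophic factor (GDNF). Sox2 mGS cells were kept in DMEM with fetal bovine serum and leukaemia inhibitory factor (LIF). Sox2, p53 knockdown and the change of medium came together in every Sox2 mGS line, so their shares in a difference cannot be told apart. The labels call the 2 cultures of a line biological replicates and do not say whether a line is 1 clone or whether a Sox2 mGS line came from the GS line of the same number. The other 3 induced routes to mGS cells served for comparison, each with 3 lines (9 lines in all) that share the p53 knockdown, the strain and the medium: Dnmt mGS (Dnmt1 knockdown), Dmrt mGS (Dmrt1 knockdown) and Oct4 mGS (lentiviral Oct4).

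GS cells are spermatogonial stem cells propagated in culture. They keep to the male germline and depend on GDNF, which signals through the receptor Ret and its partner Gfra1. Multipotent germline stem (mGS) cells look and grow like embryonic stem (ES) cells. SOX2 is a transcription factor that binds DNA together with OCT4 (gene Pou5f1), and the pair drives many genes of the pluripotency network, their own genes included. p53 is a guardian of genome integrity, and its loss eases the passage of cells into a pluripotent state.

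Values are array intensities in units of the deposited table. Each line's value is the mean of its 2 cultures on the log2 scale, and 3 values in a row belong to lines 1, 2 and 3. A level of 161 units, the 95th percentile of 1027 olfactory receptor genes that these cells are not known to use, served as background. Differences are log2 values ± limma's standard error with n = 3 lines per group compared. Its spread comes from 1 fit of all 23 lines of the 8 groups. A gene that rose or fell passed a limma adjusted p of 0.05 over 19938 genes. The p-values measure the spread between lines within all of these groups, which may be technical. Where a group lay under background, only a lower bound of the fold is stated, taken from the brighter group and 161 units, and the log2 difference is then a fitted value. Array medians of both groups lay between 228 and 239.7 units. The 2 cultures of a line differed by a median of 0.106 log2 units in GS and 0.0914 in Sox2 mGS.

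One GS line stood apart. Its fibroblast score, the geometric mean of 95 fibroblast genes, was 599 in GS line 1 against 255 and 239 in lines 2 and 3. The summed level of 8 pluripotent cell markers was 3759 in GS line 1 against 1768 and 1415. Among the genes called and described one by one against GS, leaving it out moved the log2 difference by more than 1.5 times only for Sox2 and Etv5 and ended only the Tcl1 call, as given beside them.

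Promoter windows of genes at both ends of the comparison were read from RefSeq (GRCm38.p6), each from 250 bases before to 50 after a transcription start, printed on the strand of the gene. The composite site searched for SOX2 with OCT4 was CATTGT, any base, then ATGC, on both strands. Among the pluripotency transcription factors with a window (19 of 23), 1 held this site, against 10 of 15614 tested genes with a window (0.0640%). That gene was Nanog, printed here because its level rose from under background (chr6:122707239-122707538, plus strand). The composite site, read on the opposite strand, is in capitals, 72 to 62 bases before the start. Another Nanog window (chr6:122707315-122707614) holds the same site 148 to 138 bases before its own start.
Nanog: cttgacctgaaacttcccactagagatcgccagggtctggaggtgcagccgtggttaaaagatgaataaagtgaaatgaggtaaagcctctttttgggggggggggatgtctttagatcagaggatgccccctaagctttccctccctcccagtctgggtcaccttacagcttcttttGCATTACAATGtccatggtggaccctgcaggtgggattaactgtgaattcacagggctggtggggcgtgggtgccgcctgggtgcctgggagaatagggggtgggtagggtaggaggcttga

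At the other end, the E-box CACGTG was present in 8 of 20 piRNA and germ granule genes with a window (40.0%), in 7 of 22 meiotic genes (31.8%) and in 2 of 12 X-linked germ cell genes (16.7%), against 9.50% of tested genes. It was also present in 4 of 19 pluripotency transcription factors (21.1%). The motif TCCCGC, bound by E2F factors, was present in 13 of 22 meiotic genes (59.1%) against 30.5% of tested genes. The other lists did not share this. It was present in 7 of 20 piRNA and germ granule genes (35.0%) and 1 of 12 X-linked germ cell genes (8.33%). Among pluripotency transcription factors 7 of 19 held it (36.8%). A match is a run of letters and not a shown binding site. Windows of 4 genes that fell, chosen for their matches, are printed with the E-box in capitals: Nxf2 (chrX:134964705-134965004, minus strand), Ddx4 (chr13:112652261-112652560, minus strand), Tdrd9 (chr12:111971309-111971608, plus strand) and Sycp3 (chr10:88459337-88459636, plus strand). The Nxf2 window held 5 E-boxes between 80 and 2 bases before the start. Another Nxf2 window (chrX:134963848-134964147) had no E-box.
Nxf2: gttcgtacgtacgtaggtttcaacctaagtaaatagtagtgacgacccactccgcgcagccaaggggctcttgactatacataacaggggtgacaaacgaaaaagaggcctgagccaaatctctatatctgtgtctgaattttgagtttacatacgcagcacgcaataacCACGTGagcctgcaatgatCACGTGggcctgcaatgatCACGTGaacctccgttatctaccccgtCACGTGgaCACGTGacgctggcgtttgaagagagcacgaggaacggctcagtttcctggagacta
Ddx4: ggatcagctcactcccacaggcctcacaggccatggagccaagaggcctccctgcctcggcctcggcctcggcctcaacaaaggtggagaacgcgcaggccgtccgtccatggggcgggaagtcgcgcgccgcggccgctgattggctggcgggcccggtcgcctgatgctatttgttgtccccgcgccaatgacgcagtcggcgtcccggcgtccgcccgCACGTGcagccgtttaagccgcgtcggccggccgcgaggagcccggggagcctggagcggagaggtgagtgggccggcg
Tdrd9: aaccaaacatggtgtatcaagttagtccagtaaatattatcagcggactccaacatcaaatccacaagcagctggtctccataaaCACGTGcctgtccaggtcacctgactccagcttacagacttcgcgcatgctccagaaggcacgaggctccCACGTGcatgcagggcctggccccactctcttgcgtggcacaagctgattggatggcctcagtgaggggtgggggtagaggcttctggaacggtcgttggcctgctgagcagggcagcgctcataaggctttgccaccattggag
Sycp3: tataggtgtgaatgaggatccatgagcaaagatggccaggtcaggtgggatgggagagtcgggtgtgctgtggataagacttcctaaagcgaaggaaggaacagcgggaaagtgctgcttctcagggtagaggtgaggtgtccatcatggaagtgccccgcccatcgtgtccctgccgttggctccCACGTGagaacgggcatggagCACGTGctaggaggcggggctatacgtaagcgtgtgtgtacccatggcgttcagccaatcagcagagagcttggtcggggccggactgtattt

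The delivered gene was read first. Sox2 was at 1807, 331 and 293 units in the GS lines and at 1253, 1302 and 1303 in the Sox2 mGS lines. The 3 Sox2 mGS lines lay close together, above GS lines 2 and 3 and below GS line 1. The difference was 1.20 ± 0.45 (adjusted p = 0.040), and 2.05 without GS line 1. The call was lost without GS line 2 (0.82), without GS line 3 (0.73), without any single Sox2 mGS line, with arrays centred on their median and with the fibroblast score as a covariate. Whether the probe set reads the viral Sox2 transcript was not given in the sources used here. Sox2 in the 9 lines of the other routes ran from 1689 to 5544, so that every Sox2 mGS line lay below every one of them (−1.50 ± 0.37, adjusted p = 0.015). That call was lost without any single Sox2 mGS line and with the same covariate. Pou5f1, the partner of Sox2, read 1000.1, 365 and 381 in GS and 4542, 4227 and 4288 in Sox2 mGS, a rise of 3.07 ± 0.24 (adjusted p = 1.1e-08) with no overlap. Dmrt1, a germline transcription factor, fell from 3379 to 4219.5 in the GS lines to 151 to 292 in Sox2 mGS (−4.14 ± 0.42, adjusted p = 3.3e-07). Dnmt1, which maintains DNA methylation, read 2904 to 3132 in GS and 1934 to 2133 in Sox2 mGS, with no overlap. It did not pass the test (−0.58 ± 0.35, adjusted p = 0.19). The spread in that fit includes the Dnmt mGS lines, at 620.0, 2752 and 647 units. In a fit of only the groups compared Dnmt1 passed as lower.

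**Figure D1:**
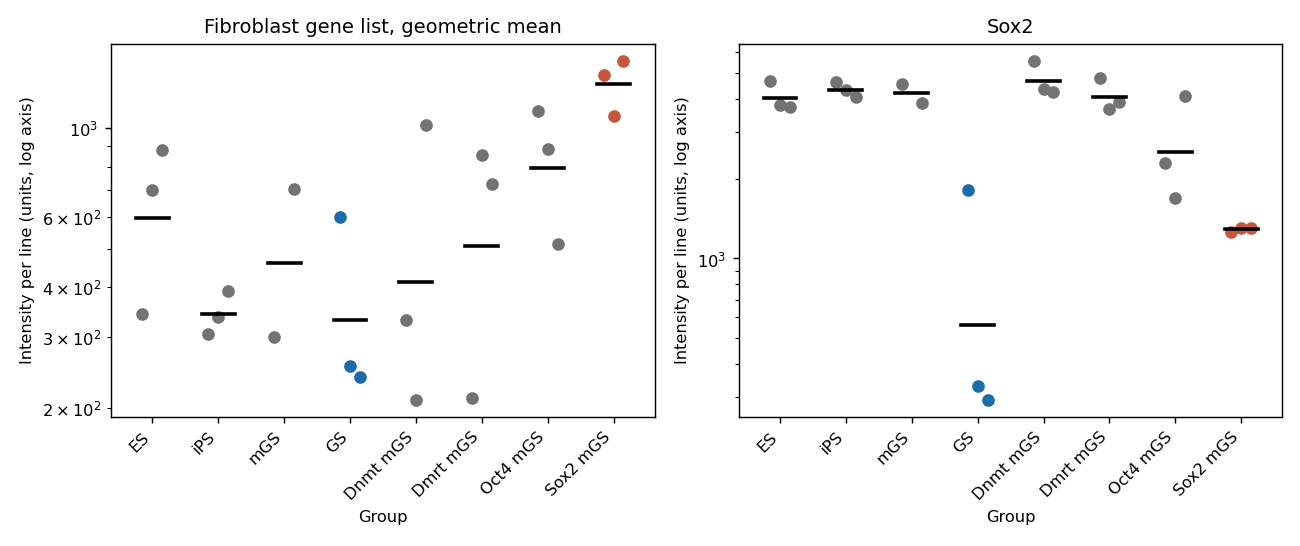
Left, the fibroblast score (geometric mean of 95 fibroblast genes) and right, Sox2, in intensity units on log axes, 1 point for each line of the 8 groups, with a bar at the geometric mean of each group. The fibroblast score of the 3 Sox2 mGS lines was 1071 to 1472 and that of GS 239 to 599, and Sox2 in Sox2 mGS was 1253 to 1303, below every ES, iPS, mGS and other induced line.

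Of 19938 genes, 8776 passed the test between Sox2 mGS and GS (44.0%), 3862 higher in Sox2 mGS (19.4%) and 4914 lower (24.6%), with a median difference over all genes of −0.06. A share of calls this high is the background for every list count that follows. For counts with the fibroblast score as a covariate the background is 3148 genes higher and 3879 lower. With a dim side taken as no lower than background, called differences of at least 16-fold were higher for 11 genes and lower for 33. Among the 3862 higher genes, 57 belonged to the fibroblast list, which is described apart.

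The pluripotency transcription factors divided. Of 23 measured, 12 rose, 3 fell and 8 did not pass, with a median difference of 1.22. Nanog, a homeobox factor at the centre of the network, read 56.5, 44.9 and 41.8 in GS and 4385, 3315 and 2937 in Sox2 mGS. All GS lines were under background and the rise was at least 21.7-fold (6.21 ± 0.22, adjusted p = 3.1e-13). Utf1, a chromatin-associated factor of undifferentiated cells, rose from 343, 361 and 160.2 to 4463, 4479 and 4562 (4.06 ± 0.26, adjusted p = 8.2e-10). Zscan10, a zinc finger factor of ES cells, rose from 72.0, 70.4 and 56.0 to 1715, 2040.2 and 2139.7, at least 12.1-fold (4.89 ± 0.21, adjusted p = 4.1e-12). In these 3 genes the lines of the groups stood far apart and the Sox2 mGS lines differed little among themselves. Nr0b1, an orphan nuclear receptor, also rose (5.07 ± 0.64), but its Sox2 mGS lines read 4506, 407 and 1183. Gbx2, a homeobox factor downstream of LIF, rose by 2.78 ± 0.67 from 54.2 to 81.3 in GS to 829, 259 and 397, and was not called with the fibroblast score as a covariate.

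Among the 8 factors that did not pass, Esrrb, an orphan nuclear receptor, read 96.8, 172 and 119 in GS and 1116, 128 and 324 in Sox2 mGS (1.51 ± 0.72, adjusted p = 0.10). Of the others, Klf4 (0.47 ± 0.45), Zfp42 (0.02 ± 0.51), Tfcp2l1 (−0.39 ± 0.67), Tbx3 (0.77 ± 0.63) and Prdm14 (1.22 ± 0.60) were named after their values were seen. Without Sox2 mGS line 2, Esrrb and Prdm14 passed as higher, and with the fibroblast covariate Tbx3 did too. For Klf4 the GS lines read 774, 432 and 399.7 and the Sox2 mGS lines 1266, 449.8 and 629, so the groups overlapped through GS line 1 alone. Without that line Klf4 did not pass either (0.77 ± 0.49, adjusted p = 0.21). The 3 factors that fell were Nr5a2, a nuclear receptor that can bind the Pou5f1 promoter, Stat3, the mediator of LIF signals, and Sp5, a target of Wnt signals. Nr5a2 fell from 846, 1794 and 1450.5 to 677, 94.0 and 260.5 (−2.35 ± 0.66, adjusted p = 0.0071), a call lost without Sox2 mGS line 2 and with the fibroblast covariate. Stat3 fell from 2913 to 3031 in GS to 1496 to 1877 (−0.82 ± 0.16, adjusted p = 0.00036). Sp5 lay between 160.2 and 202 in GS and under background in all Sox2 mGS lines (−0.75 ± 0.16).

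Genes of pluripotency signalling rose in 11 of 17, fell in 1 and did not pass in 5, with a median of 2.34. Tdgf1, the co-receptor of Nodal, was under background in GS. It read 48.9, 56.2 and 50.4 in GS and 4487, 5852 and 5025 in Sox2 mGS, at least 31.6-fold higher (6.62 ± 0.27, adjusted p = 1.5e-12). Lefty1, a secreted inhibitor of Nodal, rose from under background to 1284, 2374 and 1807 (5.80 ± 0.94), and Lefty2 from under background to 533, 457 and 327 (3.85 ± 0.58). Gdf3, a ligand of the same superfamily, rose by 4.32 ± 0.22 and was at least 9.75-fold higher. Fgf4, the growth factor whose enhancer is a classic site of joint SOX2 and OCT4 binding, rose from 70.1, 103 and 60.7 to 1411, 1056 and 1060.2 (3.94 ± 0.36, adjusted p = 8.4e-08). Id2, an inhibitor of helix-loop-helix factors induced by BMP, read 357 in GS line 1 against 67.5 and 64.8 in lines 2 and 3, and 1619.8, 1895 and 1904 in Sox2 mGS (3.96 ± 0.55, and 4.77 without GS line 1). Tcl1, a cofactor of Akt signalling, went the other way, from 689.5, 778 and 1073 to 476, 77.1 and 126 (−2.32 ± 0.91, adjusted p = 0.048). Its call was lost without any single GS line, without Sox2 mGS line 2 or 3 and with the fibroblast covariate.

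Among 16 ES cell marker and effector genes, 9 rose, 1 fell and 6 did not pass (median 1.05). L1td1, an RNA-binding protein of ES cells, was under background in GS and read 1520, 1516 and 1367 in Sox2 mGS, at least 9.1-fold higher (5.28 ± 0.19). Dppa5a rose from 388, 291 and 341 to 4431, 1407 and 1893 (2.75 ± 0.38), and Dppa2, a chromatin protein of early embryos, from 419.7 to 726 to 2744 to 3844 (2.65 ± 0.18). Jam2, an adhesion molecule, rose by 2.88 ± 0.51 and the chromatin remodeller Chd1 by 2.20 ± 0.20. The F-box gene Fbxo15 rose from 199, 136 and 98.9 to 1614, 438 and 767 (2.55 ± 0.52). Trim71, an RNA regulator, fell from 2190.3, 3409 and 3148 to 1574, 2050.1 and 1664 (−0.71 ± 0.16). Of 8 measured genes known from textbooks as direct targets of SOX2 with OCT4, all 8 rose (median 4.00). They include Sox2, the delivered gene, which rose by the least in the fit. In 7 of them all Sox2 mGS lines lay above all GS lines, as in 5110 of all 19938 genes. The count that rose was 7 with the fibroblast covariate, with centred arrays or in a fit of only the groups compared. It was also 7 without GS line 2 or 3 or any single Sox2 mGS line. These 8 also belong to the lists above and share their samples, so their count adds no independent evidence.

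**Figure D2:**
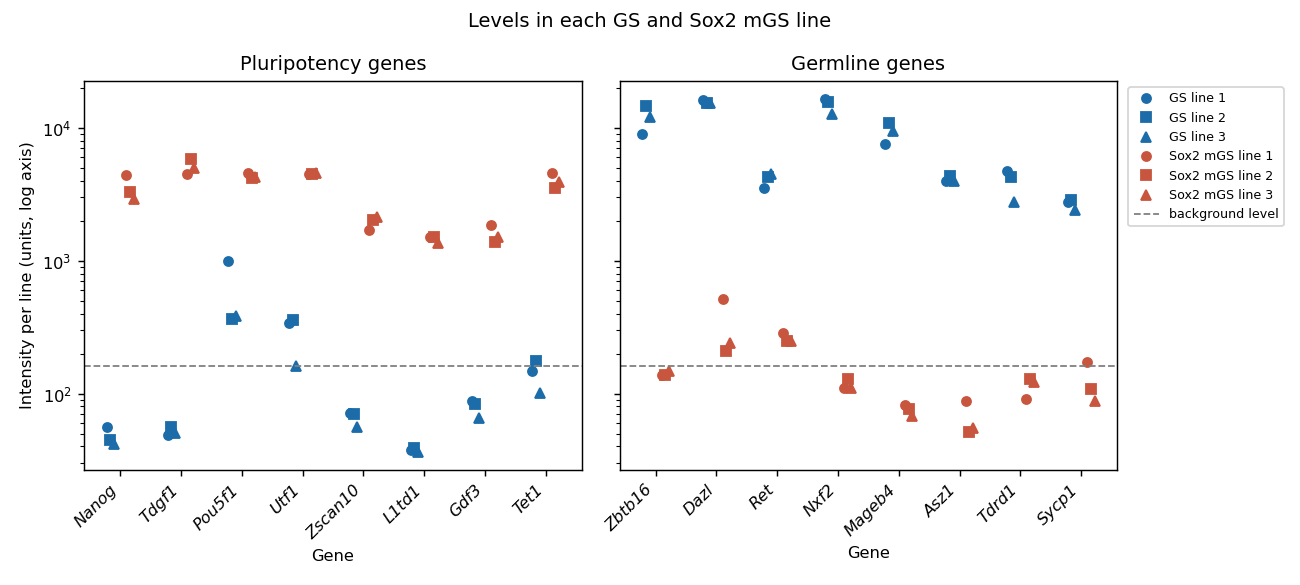
Intensity of each GS (blue) and Sox2 mGS (red) line for pluripotency genes (left) and germline genes (right), on a log axis, with symbols for lines 1, 2 and 3 and a dashed line at the background level of 161 units. Nanog read 41.8 to 56.5 units in GS and 2937 to 4385 in Sox2 mGS, and Nxf2 12653 to 16580.1 in GS and 109.9 to 129 in Sox2 mGS, with no overlap between groups in any gene shown.

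The 12 highest fitted differences outside the fibroblast list, whose order is not measured where GS lay under background, held genes of several roles beside Tdgf1, Nanog, Lefty1, L1td1 and Nr0b1. Otx2, a homeobox factor of the epiblast, rose from 42.0, 32.0 and 32.0 to 2106, 1892 and 2345 (5.91 ± 0.39, adjusted p = 1.2e-09). Fgf5, the marker of the post-implantation epiblast, rose from 34.3 to 39.7 in GS to 638, 1753 and 1739 (5.08 ± 1.12), and was not called with the fibroblast covariate (adjusted p = 0.067). Apela, a peptide hormone of early embryos, was at least 21.1-fold higher (5.48 ± 0.30), and Slc7a3, a transporter of cationic amino acids, at least 25.9-fold higher (5.31 ± 0.21). Trh, the precursor of thyrotropin-releasing hormone, read 176, 112 and 99.5 in GS and 6856, 3644 and 4815 in Sox2 mGS (5.30 ± 0.71). Kcnj3, a potassium channel subunit, rose by 5.36 ± 0.97 and Sema6a, a semaphorin, by 5.12 ± 1.00. In the last 2 genes Sox2 mGS line 1 was the lowest of the 3 lines, at 867 units for Kcnj3 against 1969.7 and 1678, and at 1708 for Sema6a against 4261 and 3632.

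Genes of the primed epiblast and mesendoderm did not move as a block. Of 18, 5 rose, 3 fell and 10 did not pass (median 0.15). Beside Otx2 and Fgf5, those that rose were the tight junction gene Cldn6 (4.84 ± 0.39), the zinc finger gene Zic2 (4.00 ± 0.31) and the epithelial regulator Grhl2 (1.41 ± 0.40). Wnt3, a ligand of the primitive streak, fell from 492 to 638 to 86.5 to 205 (−1.96 ± 0.44), and the endoderm factor Foxa2 fell by 1.06 ± 0.22 and the mesoderm factor Tcf15 by 0.93 ± 0.34 on the log2 scale, the latter not called without GS line 2 or 3 or Sox2 mGS line 2 or 3. With the fibroblast covariate the counts were 3 higher and 5 lower, and Grhl2 was not called. Of other early lineages, 4 of 15 neural genes were higher and 4 lower, 5 higher and 1 lower of 16 primitive endoderm genes (3 higher without GS line 2 or 3 or Sox2 mGS line 1 or 3), and 2 higher and 1 lower of 13 trophoblast genes. The neural gene Zic1, a zinc finger factor, was among the 12 lowest fitted differences, from 8382, 7964 and 11669 in GS to 206, 184 and 234 (−5.47 ± 0.16). In the SOX family 4 of 19 rose and 4 fell, and without GS line 2 the counts were 1 and 4. Over all genes 19.4% rose and 24.6% fell, so the SOX family and neural counts were near that background. Sox15 rose by 1.25 ± 0.32, and Sox30, a factor of male germ cells, fell from 737 to 867 to 228 to 245 (−1.79 ± 0.11, adjusted p = 5.4e-10).

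Epithelial genes rose in 8 of 14, fell in 1 and did not pass in 5 (median 1.13). Cdh1, which encodes E-cadherin, rose from 337, 249.5 and 210.0 to 2304, 4806 and 4093 (3.78 ± 0.21, adjusted p = 1.4e-10). The claudin Cldn7 rose from 33.0, 42.2 and 35.6 to 214, 1078 and 695, at least 3.37-fold (3.89 ± 0.65), and the claudin Cldn4 by 2.23 ± 0.40. The keratins Krt8 (1.88 ± 0.58) and Krt18 (1.94 ± 0.51) rose as well, but neither was called with the fibroblast covariate, under which 5 epithelial genes were higher and 1 lower. The Krt8 call was also lost without Sox2 mGS line 2. Ocln, the tight junction protein occludin, fell from 1201, 805 and 811 to 166, 448 and 276 (−1.75 ± 0.37).

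**Figure D3:**
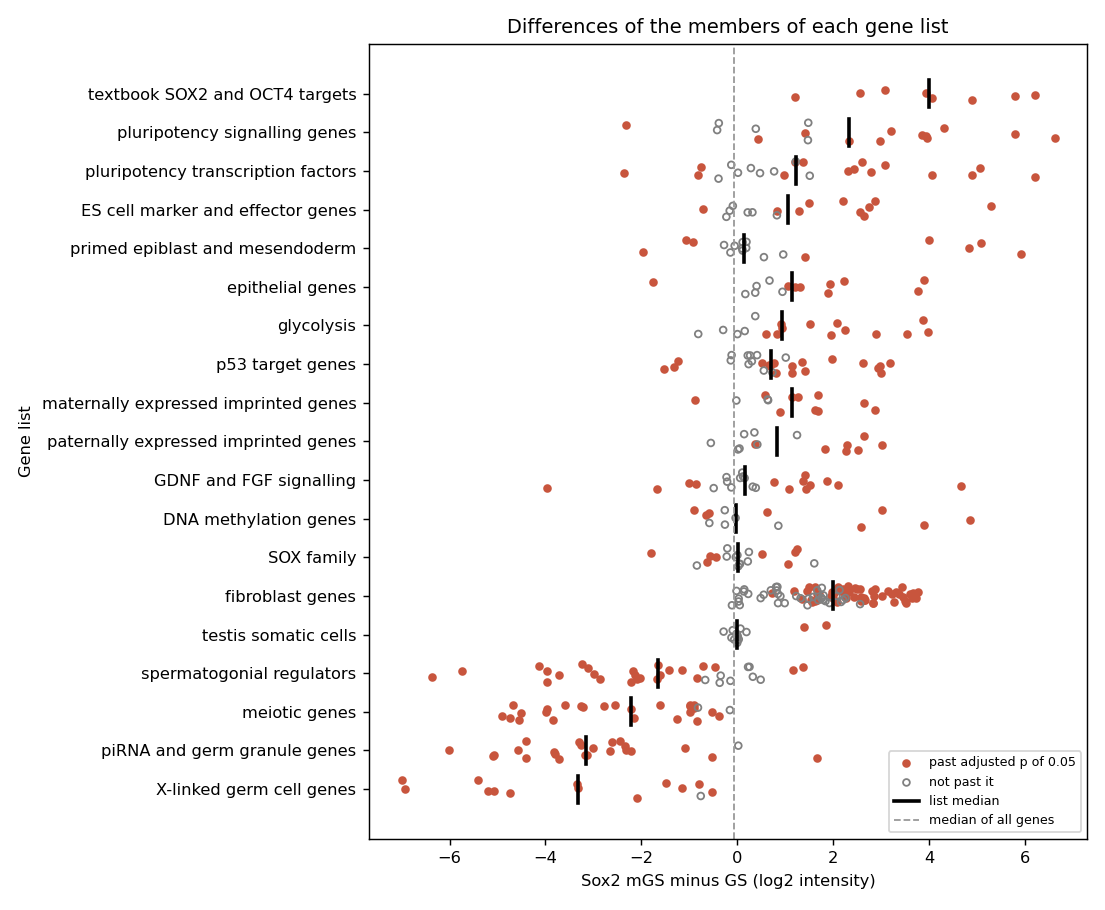
Log2 difference Sox2 mGS minus GS for each measured member of 19 gene lists, filled where the limma adjusted p was under 0.05 and open where not, with a bar at the median of each list and a dashed line at the median of all genes (−0.06). The list medians ran from 4.00 for textbook SOX2 and OCT4 targets to −3.33 for X-linked germ cell genes.

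Spermatogonial regulators fell in 23 of 33, rose in 2 and did not pass in 8 (median −1.66). Zbtb16 (PLZF), a zinc finger repressor that maintains spermatogonial stem cells, read 8987, 14611 and 12036 in GS and 137, 137 and 147 in Sox2 mGS. All Sox2 mGS lines were under background, at least 72.3-fold lower (−6.37 ± 0.13, adjusted p = 1.4e-16). Dazl, an RNA-binding protein of germ cells, fell from 16328, 15438 and 15426 to 516, 210.3 and 239 (−5.73 ± 0.51). The RNA-binding Nanos3 fell by 3.72 ± 0.17 and the helix-loop-helix factor Sohlh2 by 3.96 ± 0.50 on the log2 scale. Against the rest of the list, Etv5, a target of GDNF and FGF signals, rose from 484, 1864 and 1765 to 3730.1, 2656 and 2800.0 (1.37 ± 0.32, and 0.74 without GS line 1), a call lost in a fit of only the groups compared. The receptor gene Kit rose by 1.16 ± 0.46, a call lost with quantile normalization, with centred arrays, and without GS line 2 or 3 or any single Sox2 mGS line. In a bulk sample, fewer cells of a type and less RNA per cell cannot be told apart.

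Genes of the piRNA pathway and of germ granules, which silence transposons in the germline, fell in 22 of 24, with 1 higher and 1 not passing (median −3.15). These counts were the same with the fibroblast covariate and without any single GS or Sox2 mGS line. Asz1, a germ granule protein on mitochondria, fell from 3996, 4321 and 3957 to 87.3, 51.7 and 55.4, at least 25.4-fold (−6.02 ± 0.35). Tdrd1, a tudor scaffold, fell from 4744, 4245 and 2773 to 90.6, 129 and 121 (−5.09 ± 0.17), and the helicase Mov10l1 from 4165, 5297 and 4429 to 143, 147 and 124 (−5.06 ± 0.31). The piRNA methyltransferase Henmt1 was at least 18.3-fold lower and Gtsf1, a zinc finger cofactor of piRNA silencing, at least 9.58-fold lower. Piwil2, a PIWI protein that binds piRNAs, fell by 4.40 ± 0.23 on the log2 scale. Ddx4, a germ cell helicase named for its window, fell from 4092 to 5648 to 242 to 431 (−3.81 ± 0.27), and the helicase Tdrd9, named for the same reason, from 661 to 1178 to 144 to 164 (−2.64 ± 0.16). The member that rose was Mybl1, a transcription factor of piRNA genes, from 294, 164 and 173 to 730.4, 571 and 645 (1.67 ± 0.27).

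Meiotic genes fell in 25 of 27 with 0 higher and 2 not passing (median −2.22), in 19 of 27 with the fibroblast covariate and in 20 to 23 without any single line. The synaptonemal complex genes Sycp1 (2784, 2882 and 2389 against 172, 108 and 88.1 units, −4.51 ± 0.24) and Sycp2 (−4.56 ± 0.15) were among them. Tex12, another part of that complex, fell by 4.91 ± 0.34 and differences of the meiotic cohesin subunits Smc1b (−4.68 ± 0.73) and Stag3 (−3.98 ± 0.50) were of similar size. Sycp3, named for its window, fell from 730, 358 and 306 to 65.1, 134 and 90.9 (−2.22 ± 0.59), a call lost with the fibroblast covariate.

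Of 14 germ cell genes that are X-linked, apart from the Y-linked Zfy2, 13 fell and 0 rose (median −3.33). Nxf2, a paralogue of the mRNA export receptor, read 16580.1, 15669 and 12653 in GS and 111, 129 and 109.9 in Sox2 mGS, at least 92.3-fold lower (−7.00 ± 0.22, adjusted p = 3.9e-14). Mageb4, a cancer-testis antigen gene, fell from 7528, 10899 and 9403 to 81.6, 76.7 and 67.5 (−6.93 ± 0.16). Taf7l, a germ cell subunit of the basal transcription machinery, fell by 5.40 ± 0.14 on the log2 scale and Tex13b too (−5.20 ± 0.21). Tktl1, a transketolase-like enzyme, fell from 7622 to 8066 to 204 to 284 (−5.07 ± 0.22). Near-identical copies of Nxf2, Mageb4 and the tubulin gene Tuba3b may share probes, and their shares were not resolved. The 12 lowest fitted differences also held Tuba3b (−6.50 ± 0.43), the Y-linked deubiquitinase gene Usp9y (−5.98 ± 0.13), the germ cell surface gene Tex101 (−5.62 ± 0.12), the forkhead gene Foxf1 (−5.56 ± 0.10) and Shcbp1l (−5.36 ± 0.10). Foxf1 read 13029, 12909.5 and 10975 in GS and 260.2, 253 and 268 in Sox2 mGS, still above background. Usp9y read 3466 to 3939 in GS and 52.2 to 62.8 in Sox2 mGS, and was under background in all lines of the other routes too (50.7 to 73.9).

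Of 23 genes of GDNF and FGF signalling, 9 rose, 4 fell and 10 did not pass (median 0.15), with 5 higher and 4 lower under the fibroblast covariate. Ret read 3519, 4280.3 and 4530.5 in GS and 285, 249 and 250.2 in Sox2 mGS (−3.97 ± 0.18, adjusted p = 7.5e-12). Gfra1, its GDNF-binding partner, fell less far, from 1593, 2069.5 and 2835 to 624, 556 and 826 (−1.68 ± 0.25, adjusted p = 2.2e-05), and Gfra3 fell by 1.00 ± 0.13. No Sox2 mGS line reached the lowest GS line in these receptors. Etv1, an ETS factor induced by FGF signals, rose from 102, 58.9 and 51.0 to 1580.0, 1771 and 1771 (4.66 ± 0.40), and Spry2, a feedback inhibitor, rose by 1.88 ± 0.50. The Spry2 call was lost with the fibroblast covariate.

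Genes that p53 is known to activate were higher in 15 of 28, lower in 3 and not passing in 10 (median 0.70). Of the 31 genes listed, Cdkn1a, Bax and Fdxr were not measured under these symbols. The p53 knockdown of these cells is taken from the labels, and the level of the p53 transcript was not read here. Psrc1 rose from 280.2, 157 and 159 to 1688, 1779 and 1718 (3.18 ± 0.36, adjusted p = 9.6e-07). Zmat3, an RNA-binding p53 target, rose from 176, 98.4 and 93.5 to 892, 877 and 925, at least 5.57-fold (2.94 ± 0.28). The adhesion gene Perp (2.99 ± 0.59), the receptor gene Eda2r (2.97 ± 0.42), the Akt inhibitor Phlda3 (2.62 ± 0.43) and the stress gene Sesn2 (1.97 ± 0.19) rose too. The 3 that fell were the DNA repair genes Xpc (667, 749.6 and 636 against 249, 246 and 214 units, −1.53 ± 0.12) and Ddb2 (−1.24 ± 0.23), and Sesn1 (−1.32 ± 0.19). Mdm2, the main feedback inhibitor of p53 and named after its values were seen, read 2521, 2783 and 2725 in GS and 2362, 2247 and 2718 in Sox2 mGS (−0.14 ± 0.26, adjusted p = 0.70). The fibroblast score was higher in the same lines, and with it as a covariate 10 genes were higher and 5 lower. Over all 19938 genes that fit gave 3148 higher and 3879 lower, so the 5 lower genes were near the background share.

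Glycolysis genes rose in 12 of 17 with 0 lower (median 0.94), and in 12 or 13 of 17 in each fit that left out 1 line. The phosphofructokinase subunit gene Pfkl rose from 185, 79.4 and 68.8 to 1285, 1848 and 1696 (3.99 ± 0.34), and the lactate exporter Slc16a3 from 124 to 312 to 1939 to 3059.9 (3.87 ± 0.49). Pgk1, which forms ATP in glycolysis, read 1161, 324 and 319 in GS and 5584, 5773 and 5936 in Sox2 mGS (3.55 ± 0.32, and 4.16 without GS line 1). The glucose transporter Slc2a3 rose by 2.90 ± 0.20, lactate dehydrogenase A (Ldha) by 2.25 ± 0.10 and Tpi1 by 2.08 ± 0.23. GS line 1 was above the other GS lines in Pgk1, Pfkl and Slc16a3. Per the labels, glucose, pyruvic acid and lactic acid were added to the medium of GS cells, so that medium and group cannot be told apart.

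DNA methylation genes rose in 5 of 13 and fell in 3, or in 4 and 1 without Sox2 mGS line 2. Tet1, which oxidises methylated cytosine, rose from 147, 175 and 102 to 4581, 3499 and 3895, at least 24.6-fold (4.85 ± 0.16, adjusted p = 1.2e-13). Tet2 rose to 1854, 399 and 753 (3.02 ± 0.43), and Tet3 fell from 558 to 689 to 305 to 334 (−0.90 ± 0.12). Dnmt3l, the cofactor of de novo methylation, rose from 134, 140.2 and 77.9 to 2936, 1162 and 1390.2 (3.89 ± 0.29), and the de novo methyltransferase Dnmt3b by 2.57 ± 0.52. Among G1 cyclins, inhibitors and Myc, 7 of 20 rose and 4 fell, and without Sox2 mGS line 3 the counts were 4 and 3. Cyclin E1 (Ccne1) rose from 430.5, 582 and 609 to 3238, 3166 and 2792 (2.52 ± 0.16), and cyclin D1 (Ccnd1) by 1.50 ± 0.32. The retinoblastoma gene Rb1 fell from 2376, 2467 and 2399 to 829, 569 and 715 (−1.79 ± 0.28), and the inhibitor gene Cdkn2a by 1.07 ± 0.16.

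Of 14 paternally expressed imprinted genes 7 rose, 0 fell and 7 did not pass, but with the fibroblast covariate 4 were higher and 4 lower. Peg3 rose from 612, 369 and 409 to 3409, 3790.2 and 3739 (3.01 ± 0.32), Sgce by 2.64 ± 0.53 and Mest by 2.52 ± 0.31. Of 13 maternally expressed genes 9 rose and 1 fell, the growth inhibitor Cdkn1c (464, 448 and 430.5 against 245, 233 and 251 units, −0.88 ± 0.15). Grb10, an adaptor of growth signals, rose by 2.87 ± 0.62. The noncoding RNA gene Meg3 rose from 693, 181 and 203 to 1022, 1663 and 3665 (2.64 ± 0.51), and its neighbour Rian from 94.6, 105 and 93.5 to 152, 293 and 696 (1.69 ± 0.57). The Rian call was lost without GS line 3, without Sox2 mGS line 3 and with the fibroblast covariate.

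Fibroblast genes were kept apart, since both groups grew on feeder cells that a short plating on gelatin was meant to remove. Of 95 measured, 57 were higher in Sox2 mGS, 0 were lower and 38 did not pass (median 2.00). The fibroblast score was 1357, 1071 and 1472 in Sox2 mGS lines 1, 2 and 3. Lines 1 and 3 lay above every other line of the series, and line 2 lay below Oct4 mGS line 1 (1100). Of 12 defining fibroblast markers 10 were higher, the exceptions being Dcn and Twist1, and all 12 were above background in each Sox2 mGS line. The matrix inhibitor gene Timp3 read 530.1, 289 and 288 in GS and 5174, 3919.9 and 5461 in Sox2 mGS (3.77 ± 0.84). The surface marker Thy1 rose from 763, 207 and 193 to 3924, 2646 and 3872 (3.46 ± 0.71). The signalling ligand Ccn4 rose from 416, 76.6 and 56.4 to 1777, 1017 and 1995 (3.66 ± 0.95). Ccn4 was not called with the fibroblast covariate. That covariate is a mean that includes Ccn4 itself, so it cannot decide about a member of the list. GS line 1 was the highest GS line in Timp3, Thy1 and Ccn4, and still below all Sox2 mGS lines. Their differences without GS line 1 were 4.06, 4.10 and 4.54. Without GS line 1 the count of higher genes was 64 (median 2.51), without GS line 2 it was 40, and without GS line 3 it was 38. Without Sox2 mGS line 1, 2 or 3 it was 45, 52 or 43. The covariate used elsewhere is this score, whose ranges in the groups do not overlap. Of 14 markers of testis somatic cells only 6 had a group mean above background, and of these Clu and Inhbb were higher, the latter not called without GS line 2 or 3 or any single Sox2 mGS line. The germline markers summed to 42403, 47860 and 45335 in GS and to 2360, 2178 and 2390 in Sox2 mGS. The pluripotent markers summed to 22228, 20579 and 19785 in Sox2 mGS.

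The 3 Sox2 mGS lines differed from each other in an ordered way. Among genes above background in at least 1 line whose range between lines exceeded the largest difference between cultures, 15 of 18 pluripotency transcription factors were highest in line 1 (83.3%, against 37.3% of all genes), and 12 of 18 ran in the order line 1, line 3, line 2 (66.7%, against 23.8% of all genes). Nr0b1 (4506, 407 and 1183 in lines 1, 2 and 3) and Esrrb (1116, 128 and 324) ranged over 3.47 and 3.13 log2 units, Esrrb from under background. Prdm14 (296, 92.1 and 206) and Nr5a2 (677, 94.0 and 260.5) ran the same way. A lean to line 1 was not particular to these factors. By the same rule 6 of 7 trophoblast genes (85.7%) and 11 of 15 GDNF and FGF genes (73.3%) were highest there. Fewer glycolysis genes (3 of 11, 27.3%) and fibroblast genes (21 of 89, 23.6%) were. Epithelial genes ran the opposite way: all 14 of 14 were lowest in line 1 (100%, against 41.0% of all genes), and 13 ran in the order line 2, line 3, line 1 (92.9%, against 31.4%). Cldn4 read 263, 862 and 448 and Krt8 599.8, 1833 and 1177 in lines 1, 2 and 3. Of 13 primed epiblast genes, 9 ran in this order as well (69.2%). Ranges over 1 log2 unit were found for 10 of 23 pluripotency factors (43.5%) and 10 of 14 epithelial genes (71.4%), against 346 of all genes (1.74%). The 3 lines are the only replicates of the route and these lists were chosen with results known, so the counts are descriptions without a test.

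Pou5f1, Sox2, Utf1 and Sall4 stayed within a narrow range in the 3 lines. Meg3 (1022, 1663 and 3665), Rian (152, 293 and 696) and the microRNA gene Mir377 of the same imprinted cluster (92.0, 248 and 672) were lowest in line 1 and highest in line 3. Other genes with wide ranges ran in the order line 1, line 3, line 2: Timp4 (1788, 206 and 268), a metalloproteinase inhibitor, Nkx2-9 (1155, 146 and 205), a homeobox gene, Septin1 (1185, 151 and 253), Spink1 (490.4, 63.0 and 136), a protease inhibitor, and Morc1 (1411, 188 and 376), a germ cell chromatin gene. The fibroblast score was lowest in line 2, as were most pluripotency factors, while 13 of 14 epithelial genes were highest there. It was highest in line 3, so its full order differed from both. Whether feeder cells contributed to these orders was not tested.

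**Figure D4:**
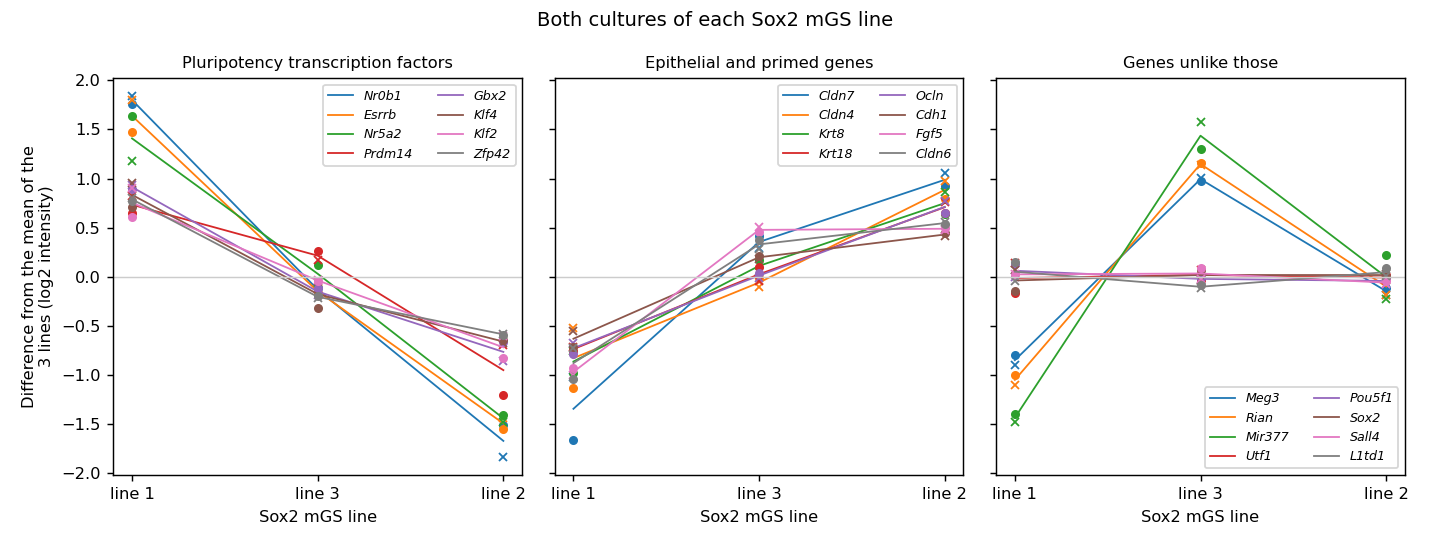
Each Sox2 mGS line's log2 intensity minus the mean of the 3 lines, with lines ordered 1, 3, 2, for pluripotency transcription factors, for epithelial and primed genes, and for genes unlike those. Points are culture 1 and crosses culture 2 of a line, and connecting strokes join line means to guide the eye. Nr0b1 and Esrrb ranged over 3.47 and 3.13 log2 units with line 1 highest, while Cldn7 was lowest in line 1 (214 units against 1078 and 695).

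Against the 9 lines of the other 3 routes, both sides carried the p53 knockdown and grew in the same medium. Of 19938 genes 2822 passed (14.2%), 1195 higher in Sox2 mGS (5.99%) and 1627 lower (8.16%). With the fibroblast score as a covariate the counts were 298 and 514. The fibroblast list stood above that share, with 19 of 95 higher and 0 lower, and the fibroblast scores of the 9 lines ran from 209 to 1100 against 1071 to 1472. That count was 4, 8 or 2 without Sox2 mGS line 1, 2 or 3, 50 without Dnmt mGS line 3 and 7 in a fit of only the groups compared. Dnmt1 read 620.0, 2752 and 647 in the lines labelled Dnmt mGS, so that line 2 did not show the lower level of its label, and without it 1018 genes were higher and 1406 lower. Without Sox2 mGS line 3 the count over all genes fell to 178 higher and 354 lower, so these calls depend on the 3 lines together.

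Of 23 transcription factors 3 were higher, 6 lower and 14 not passing. The counts were 0 and 1 with the fibroblast covariate, 0 and 4 with only the groups compared, 0 and 2 with the line number as a block and 3 and 13 with arrays and the line as a random block. Sox2 itself, Klf2 (−1.01), Klf5 (−0.59), Esrrb (−1.87), Tfcp2l1 (−1.98) and Zfp296 (−1.31) were lower, and Stat3 (0.41), Sall4 (0.29) and Zscan10 (0.62) higher. Klf2, Klf5, Zfp296 and Sall4 were named after their values were seen, to complete the count. Nanog, at 2937 to 4385 against 3711 to 7916, did not pass (−0.55 ± 0.18, adjusted p = 0.052), but passed as lower without some single lines, among them Sox2 mGS line 1. Without Sox2 mGS line 2 or without line 3, 1 factor was lower and 0 higher, and only the Zfp296 call was kept without any single Sox2 mGS line. The Stat3 and Sall4 calls were also lost with centred arrays. Fgf4, a joint target of SOX2 and OCT4, was lower (−1.23 ± 0.29, adjusted p = 0.012), with Sox2 mGS at 1411, 1056 and 1060.2 and the other lines at 1123 to 4410.5. Dppa5a (−1.37 ± 0.31) and Jam2 (−1.97 ± 0.41) were lower too, and these 3 calls were lost without Sox2 mGS line 2 or 3. No primed epiblast gene passed in either direction (0 of 18), and 1 epithelial gene was lower, Cldn4 (−1.19). Of 27 meiotic genes 7 were lower and 0 higher, among them Tex12 (−1.30 ± 0.27) and Sycp1 (−1.10 ± 0.20), and the count was 1 with the fibroblast covariate or without Sox2 mGS line 3, and 3 without line 2 or in a fit of only the groups compared. Tex12 lay under background in all Sox2 mGS lines and in most of the others.

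Of 33 spermatogonial regulators 4 were higher than in the other routes, 1 was lower and 28 did not pass. With the fibroblast covariate 2 were higher and 1 lower. Of 23 genes of GDNF and FGF signalling 5 were higher and 0 lower. Gfra1 was among the genes that were higher. Although it fell from GS, all Sox2 mGS lines (556 to 826) lay above all 9 lines of the other routes (179 to 353), a difference of 1.36 ± 0.20 (adjusted p = 0.00071). The Gfra1 call was kept without any single line, and with the fibroblast covariate. Ret was higher by 0.48 ± 0.15 with overlapping lines. Rb1 likewise lay between GS and the other routes, at 569 to 829 against 213 to 532 (0.90 ± 0.23, adjusted p = 0.017). Mdm2, at 2247 to 2718 against 991 to 2169, was higher by 0.77 ± 0.21 (adjusted p = 0.021). The Rb1 call was lost without Sox2 mGS line 1 or 3, and the Ret and Mdm2 calls without any single Sox2 mGS line.

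The 8 highest fitted differences outside the fibroblast list, in genes whose lines did not overlap, included Ch25h, which makes 25-hydroxycholesterol. It read 956, 663 and 990.3 in Sox2 mGS and 53.3 to 327 in the other routes (2.78 ± 0.62, adjusted p = 0.0081). C1qtnf3, a secreted protein, read 994, 833 and 1469 against 82.2 to 685 (2.71 ± 0.29, adjusted p = 5.6e-05), P4ha3, a collagen prolyl hydroxylase, 1211, 758 and 1179 against 80.8 to 377 (2.40 ± 0.46), and the transcription factor Runx1 1046, 730.1 and 1172 against 63.7 to 486 (2.25 ± 0.48). The matricellular gene Ccn3 (2.22 ± 0.56), the AP-1 gene Fosl1 (2.21 ± 0.72), the zinc finger gene Egr2 (2.11 ± 0.20) and the lipid-binding gene Fabp7 (2.10 ± 0.62) completed the set. Egr2 read 965, 1099 and 1057 in Sox2 mGS, 1403 to 1687 in GS and 115 to 641 in the other routes. The fibroblast score was also higher in Sox2 mGS than in most of these lines. With it as a covariate Ch25h, C1qtnf3, P4ha3, Runx1 and Egr2 kept their calls, while Ccn3, Fosl1 and Fabp7 did not. Ch25h read 56.1 in Dnmt mGS line 2 and 53.3 in Dmrt mGS line 1, whose scores were 209 and 211. It read 258.5 in Dnmt mGS line 3, whose score was 1016. In the same lines P4ha3 (81.5 and 80.8 against 352.6) and Runx1 (63.7 and 71.1 against 326.9) ran likewise. Egr2 was under background in all of these lines (114.9 and 130.9 against 126.9), so its course there could not be read. Whether feeder cells contributed to these differences was not tested.

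The 8 lowest under the same rule were Elobl (−2.44 ± 0.45), Calr4 (−2.15 ± 0.46), Apobec2 (−1.99 ± 0.42), the water channel gene Aqp3 (−1.83 ± 0.54), Zcwpw1 (−1.71 ± 0.21), Cox7a1 (−1.63 ± 0.40), Zfp640 (−1.62 ± 0.18) and Ldhb (−1.60 ± 0.30). Elobl and Calr4 were under background in Sox2 mGS and in GS alike. Zcwpw1, a reader of histone marks in meiosis, read 1598 to 2197 in GS, 176, 320.1 and 232 in Sox2 mGS and 420.5 to 1252 in the other routes. Zfp640 read 937, 755 and 722 in Sox2 mGS, below GS (2429 to 3110.2) and below the other routes (1139 to 3939). Lactate dehydrogenase B (Ldhb), which favours the use of lactate, read 784, 730.0 and 605 against 1248 to 4466 in the other routes. With the fibroblast covariate Elobl, Zcwpw1, Zfp640 and Ldhb kept their calls and Calr4, Apobec2, Aqp3 and Cox7a1 did not. Without Sox2 mGS line 3, 7 of these 16 genes kept their calls: C1qtnf3, P4ha3, Egr2, Elobl, Zcwpw1, Zfp640 and Ldhb.

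**Figure D5:**
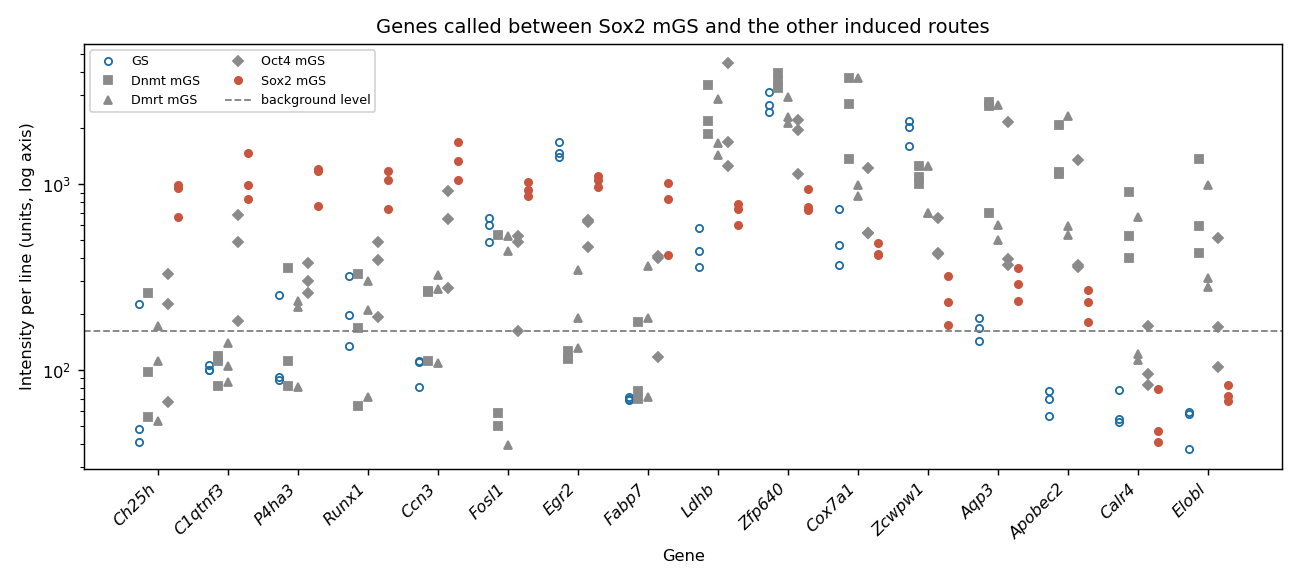
Intensity per line, on a log axis, of the 8 genes furthest above and the 8 furthest below the other induced routes by the naming rule, for GS (open blue), Dnmt mGS, Dmrt mGS and Oct4 mGS (grey symbols) and Sox2 mGS (red), with a dashed line at the background level of 161 units. In each gene the 3 Sox2 mGS points lie beyond all 9 grey points, as for Egr2, at 965 to 1099 units against 115 to 641.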

How the data were processed

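RNA was measured on 46 whole-transcript mouse arrays. The deposited table holds linear intensity for 28856 probe sets. No source used here states how the authors scaled it. The mouse assembly mm9 is named in the submitters' processing notes, and no coordinate of it was used. The labels describe a short gelatin plating against feeder cells before RNA was taken.

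By the platform annotation 21789 probe sets name a single gene, 1621 several and 5446 none. Those with a single gene were used, by the brightest of each gene, which gave 19938 genes, and 21698 matched RefSeq (GRCm38.p6) by gene ID. Values were taken as log2 with no offset. The 2 cultures of a line were averaged, and 23 lines entered a limma fit (limma 3.58.1, R 4.3.3, 15 residual degrees of freedom) with Benjamini-Hochberg adjustment over all genes. Contrasts were Sox2 mGS minus GS and Sox2 mGS minus the mean of Dnmt, Dmrt and Oct4 mGS. The fit was checked on simulated data. Motif matches in RefSeq windows were exact, on both strands.

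The samples, lists and named genes were chosen with earlier results of these data known. Named by rule were the targeted genes, the 6 members of each list with the largest called differences and members against their list, the 12 highest and 12 lowest called genes without overlap of lines, the 8 highest and 8 lowest against the other routes, and the 8 widest between Sox2 mGS lines, leaving out unnamed gene models and olfactory receptor genes. Other genes are marked in the text. Alternatives changed the normalization, blocks, filters, fitted groups and probe set rule, added the fibroblast score as a covariate, or left out 1 line.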

Additional observations from a re-analysis of the deposited data

Results flagged for a closer look

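In 25 of the genes named, the Sox2 mGS lines differed from the other induced routes by limma's adjusted p of 0.05 and lay beyond all 9 of those lines, 14 higher and 11 lower. Of these, 16 were named by a rule that itself required the call and no overlap, so the count is a description. Over all genes 14.2% passed the test. Each value is the log2 difference Sox2 mGS minus other routes, and both groups share the p53 knockdown.

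Among them were the pluripotency factors Sox2 (−1.50) and Stat3 (0.415), the germline genes Gfra1 (1.36) and Tex101 (−0.37), the p53 targets Xpc (−0.353) and Mdm2 (0.775), the retinoblastoma gene Rb1 (0.896) and the imprinted gene Sgce (1.69). Tex101 was under background in all of these lines. The fibroblast gene Ccn4 differed by 2.66.

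By the naming rule, Ch25h (2.78), C1qtnf3 (2.71), P4ha3 (2.40), Runx1 (2.25), Ccn3 (2.22), Fosl1 (2.21), Egr2 (2.11) and Fabp7 (2.10) were higher. Elobl (−2.44), Calr4 (−2.15), Apobec2 (−1.99), Aqp3 (−1.83), Zcwpw1 (−1.71), Cox7a1 (−1.63), Zfp640 (−1.62) and Ldhb (−1.60) were lower.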

How the results depend on the processing

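Between Sox2 mGS and GS, the counts of genes called stayed within 1.5 times under every alternative run, at 3270 to 3686 higher and 4201 to 5133 lower without any single line. Against the other routes they moved further. Arrays with the line as a random block gave 2252 higher and 2462 lower, culture number as a block 2212 and 2447, only the groups compared 611 and 985, and the fibroblast score as a covariate 298 and 514. Leaving out 1 line gave 178 to 1590 higher and 354 to 1965 lower, the lowest without Sox2 mGS line 3. Of the 16 genes named by rule there, 9 kept their call with the fibroblast covariate and 7 to 16 without a line. Against GS, 150 to 164 of the 172 called genes named by rule kept direction and call without a line. Inhbb turned to −0.35 with the fibroblast covariate.

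The line number as a replicate block gave 604 higher and 1001 lower against the other routes, and 3551 higher and 4578 lower against GS. Deviations of same-numbered GS and Sox2 mGS lines correlated at 0.0222, 0.119 and −0.135 over genes. Those of differently numbered lines ran from −0.159 to 0.179. A line need not keep the deviations of its parent, so these values cannot decide whether the numbers pair the lines.

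Each group has 3 lines, which limits precision. Genes under the background of 161 units have no measured level, and the scaling of the deposited values is unknown. The causes of these changes were not tested.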
